A study of Drosophila melanogaster with 18 samples.

Results

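Antimicrobial peptides are short secreted proteins with which insects kill bacteria and fungi. The genes described here are 10 of the 14237 genes counted in ovaries of newly eclosed Drosophila females. They were chosen by name as the classical antimicrobial peptide genes and comprise the attacins AttA, AttB, AttC and AttD, the diptericins DptA and DptB, drosocin (Dro), drosomycin (Drs), metchnikowin (Mtk) and defensin (Def). All 10 were present in the gene table and passed the filter on low counts.

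The study asked how ovarian gene expression changes when proteins of the nuclear lamina, the protein network under the nuclear envelope, are lost, and how much of the change depends on the checkpoint kinase Chk2. RNA was taken from about 100 pairs of hand-dissected ovaries per library. Wild type was sampled in Canton S (CS, 4 libraries by the labels, 1 more than the methods count, all of them used here) and in yw (3 libraries), which carries mutations in yellow and white. Emerin, a LEM-domain protein of the inner nuclear membrane encoded by Ote, was mutated in emerin G/PI and in emerin G/PK, with 2 libraries each. These flies combine the ote G allele, a Piggybac insertion, with either the ote PI allele, an amino acid substitution, or the ote PK allele, a premature stop, all made in yw. Another 3 libraries came from chk2, emerin double mutants, which carry emerin G/PK together with the chk2 P6 and P30 alleles of lok, the gene for Chk2. For baf GLKD (2 libraries), the lamina partner BAF was depleted with a short hairpin RNA driven by nos>gal4VP16, so that the knockdown acts in germ cells only. The nosgal4 controls (2 libraries) carry that driver, in a w 1118 line, without the hairpin. By the labels, baf GLKD flies were kept at 25 °C and every other genotype at room temperature, whereas the methods name 25 °C for every cross. These sources disagree, and if the labels hold, knockdown and temperature cannot be told apart.

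In Drosophila, fungal and Gram-positive infection activates the Toll receptor through the cytokine Spätzle and releases the NF-kB factors Dif and Dorsal, whereas peptidoglycan of Gram-negative bacteria binds PGRP receptors and acts through Imd on the NF-kB factor Relish. Drs is the standard readout of Toll and the diptericins are the standard readout of Imd, while most other antimicrobial peptide genes respond to both. The fat body, an organ with the role of liver and adipose tissue, is the main source after systemic infection. Epithelia also make some of these peptides without infection, and in females Drs and Dro have been seen in parts of the reproductive tract.

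Libraries held between 18138657 and 28372959 estimated counts. In 7 of them (CS replicates 1 and 2, yw replicates 1 and 2, emerin G/PI replicate 1, nosgal4 replicate 1 and baf GLKD replicate 1, called the first library set below) the deposited transcript tables summed to 7.4 to 18.9 times fewer counts than the table of genes. Both tables matched within 0.16% for the remaining 11, the second library set. Levels are given in CPM, counts over the TMM-scaled library size brought to a common total, and differences as log2 fold changes from edgeR's quasi-likelihood test, called where the Benjamini-Hochberg adjusted p over 12762 genes was under 0.05. The targeted genes were lower in their mutants than in the controls, but not only there. Ote lay between 64.8 and 85.3 CPM in wild type and between 11.7 and 59.0 in emerin mutants. lok lay between 194 and 247 in wild type and between 14.3 and 16.0 in chk2, emerin, and baf was at 86.0 and 110 in nosgal4 and at 66.4 and 72.5 in baf GLKD. In genotypes that do not target them, Ote was at 39.1 and 56.5 in baf GLKD and lok at 55.2 to 121 in emerin. Likewise baf was at 51.6 to 75.1 in chk2, emerin, so its level alone does not show the knockdown. Germline markers, summed over 11 genes, were at 3730 to 5577 CPM in wild type and were present in every genotype. Their sum was 570 to 1783 in emerin, 1956 to 2191 in baf GLKD, 5064 to 5087 in nosgal4 and 4898 to 5047 in chk2, emerin. CPM are relative levels, and the part of the lower germline sums in the rises of other genes was not tested. Nothing in the labels says whether libraries of 1 genotype came from separate cultures, and the methods call them independent biological isolates.

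Antimicrobial peptide transcripts were scarce, and Drs made up most of them. The 10 genes together reached between 7.63 CPM, in chk2, emerin replicate 2, and 372 CPM, in baf GLKD replicate 1. Drs was 56.5% to 92.3% of that sum in every library. Per transcript length, on the TPM scale of the 11 libraries of the second set, the median level was 340 TPM for Drs, 13.9 for Dro, 11.2 for Def and 6.45 for Mtk. The other 6 genes had medians from 0.151 TPM (AttD) to 2.88 TPM (AttC). The low genes rest on few reads. AttD had at most 29 counts in any library and Mtk at most 32, so that their values carry wide counting error.

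**Figure D1:**
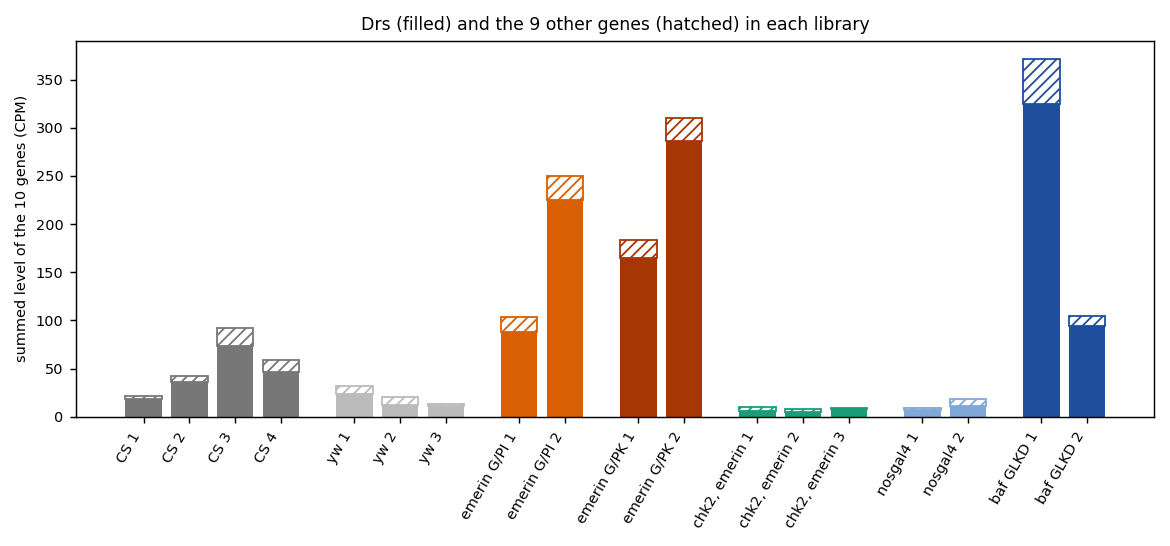
Summed level of the 10 antimicrobial peptide genes (CPM, y axis from 0) in each of the 18 libraries (x axis), with Drs filled and the 9 other genes hatched. The 6 emerin and baf GLKD libraries lie between 104 and 372 CPM, and the other 12 between 7.63 and 91.7.

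By sum, the 4 emerin and 2 baf GLKD libraries stood above all 12 others. The sums were 104, 249.8, 183 and 310.5 CPM in emerin and 372 and 104 in baf GLKD. Wild type ranged from 12.9 to 91.7 with a median of 32.0, nosgal4 was at 9.35 and 18.7, and chk2, emerin was at 10.3, 7.63 and 9.58. Libraries of 1 genotype also differed from each other across members. baf GLKD replicate 1 exceeded replicate 2 for 10 of 10 members, where 46.2% of all tested genes did so. It was also the highest of all 18 libraries for 7 members. CS replicate 3 was the highest of 4 CS libraries for 7 members (22.6% of all genes), and yw replicate 3 the lowest of 3 yw libraries for 9 (28.2%).

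**Figure D2:**
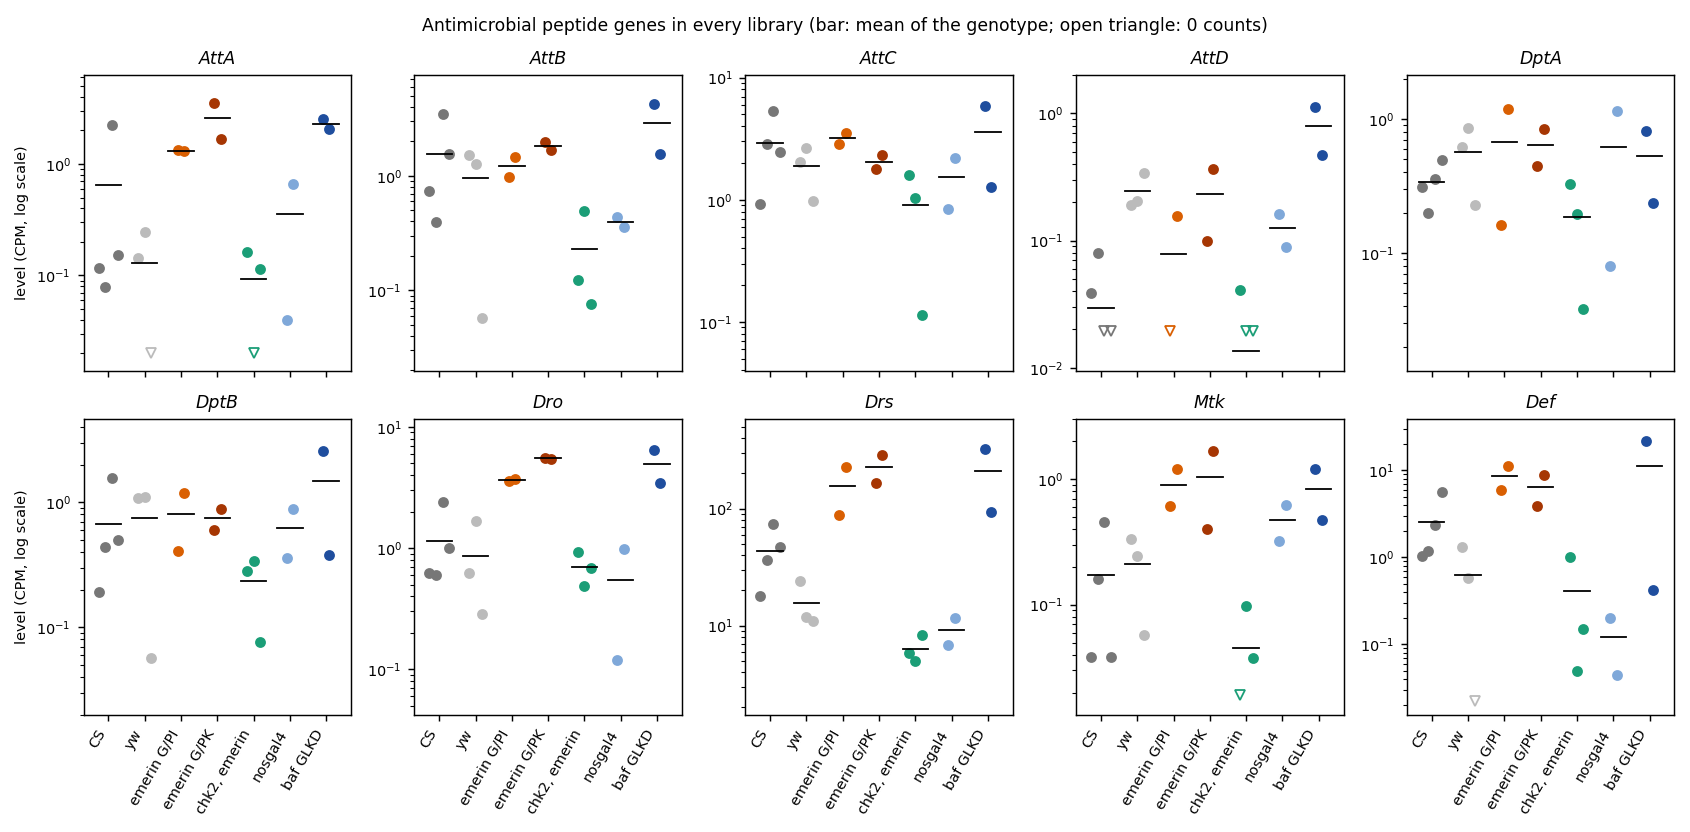
Level of each gene (CPM, log axis) in every library, grouped by genotype. Points are libraries, bars are means of the genotype and open triangles are libraries with 0 counts. For Drs and Dro all 4 emerin points lie above all 7 wild-type points, and for the diptericins the emerin and wild-type points overlap.

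Drs, on chromosome 3L (3369556 to 3369942, BDGP6 coordinates, as for all genes here), encodes an antifungal peptide and is the most abundant of the 10. CS replicates 1 to 4 had 18.01, 36.6, 73.5 and 46.8 CPM, and yw replicates 1 to 3 had 24.1, 11.9 and 10.9. Emerin G/PI was at 88.1 and 225 CPM and emerin G/PK at 165 and 287. Every emerin library was thus above every wild-type library. Drs rose in emerin mutants by 2.59 on the log2 scale (SE 0.48, edgeR adjusted p = 0.000261), about 6.03-fold. Within the first library set the log2 fold change was 1.88 (edgeR adjusted p = 0.106) and within the second 2.31 (edgeR adjusted p = 0.00655).

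In germline BAF knockdown Drs was again high, but its replicates were far apart. baf GLKD had 325 and 94.1 CPM, against 6.78 and 11.7 in nosgal4. The log2 fold change was 4.50 (standard error 0.90, edgeR adjusted p = 0.00327). Without baf GLKD replicate 1 it was 3.29 (edgeR adjusted p = 0.0331), and without replicate 2 it was 5.11 (edgeR adjusted p = 0.00359). Each library set alone holds 1 library of each group, and gave 5.58 (edgeR adjusted p = 0.270) and 3.01 (edgeR adjusted p = 0.0802).

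By genotype mean Drs was lowest in chk2, emerin double mutants, at 5.82, 4.94 and 8.29 CPM, below all CS and yw libraries. The nosgal4 controls, at 6.78 and 11.7 CPM, overlapped them, so Drs below CS and yw was not particular to the double mutants. Drs fell in chk2, emerin against wild type (CS and yw) by 2.31 on the log2 scale (SE 0.62, edgeR adjusted p = 0.0353). This call lies close to the threshold. It was lost without CS replicate 2 (edgeR adjusted p = 0.0524) and without chk2, emerin replicate 1, 2 or 3 (0.163, 0.112 and 0.106). Against yw alone, the strain that shares the background of the double mutants, the log2 fold change was -1.30 (edgeR adjusted p = 0.128), and within the second library set, which holds all double mutant libraries, -2.79 (0.0229). The step from emerin to chk2, emerin had its largest fitted value for Drs. Emerin mutants exceeded the double mutants by 4.91 (SE 0.74, edgeR adjusted p = 4.85e-05), and emerin G/PK alone, which has the same Ote alleles, exceeded them by 5.15 (SE 0.66, edgeR adjusted p = 1.67e-05).

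Markers of other cell types also changed in emerin against wild type and in baf GLKD against nosgal4. Library by library their sums did not always follow Drs. Emerin G/PK replicate 2 had the highest Drs of the emerin libraries (287 CPM) and the lowest sum of 12 fat body genes (2351 CPM). The summed level of 12 fat body genes was 262 to 1661 CPM in wild type, 2351 to 3668 in emerin and 727 to 1453 in chk2, emerin. It was 499 to 657 in nosgal4 and 2697 to 3025 in baf GLKD. Of these 12 genes, which include the larval serum proteins and the yolk proteins that ovarian follicle cells also make, 10 rose in emerin and 7 in baf GLKD (28.3% and 13.3% of all genes rose), and takeout (to) was at 0 counts in all nosgal4 and baf GLKD libraries. The yolk protein genes Yp1, Yp2 and Yp3 made up 81.8 to 91.0% of the sum in chk2, emerin, 57.6 to 85.5% in wild type and 17.7 to 76.2% in emerin. Without them the sum of the other 9 genes was 59.5 to 406 CPM in wild type, 749 to 2222 in emerin, 131 to 157 in chk2, emerin, 93.3 to 102 in nosgal4 and 741 to 1057 in baf GLKD. Against chk2, emerin, 8 of the 12 fat body genes were higher in emerin, beside 26.4% of all genes. The summed level of 12 hemocyte genes was 370 to 1642 CPM in wild type, 3687 to 4455 in emerin and 1118 to 1364 in chk2, emerin, with none at 0 throughout a genotype. It was 263 to 785 in nosgal4 and 2635 to 2776 in baf GLKD, and 11 of the 12 rose in emerin and 7 in baf GLKD. Ppn alone made up most of the hemocyte sum in every library. It was at 203 to 1311 CPM in wild type, 2384 to 3171 in emerin, 961 to 1159 in chk2, emerin and 1709 and 2161 in baf GLKD. The sum thus says little about the other hemocyte genes. Muscle sheath genes rose as well (10 of 10 in emerin, 8 of 10 in baf GLKD), whereas 9 of 11 germline genes fell in emerin and 6 of 11 in baf GLKD (26.6% and 8.28% of all genes fell). The summed level of 11 ovarian soma genes was 330 to 739 CPM in wild type, 975 to 1403 in emerin, 455 to 815 in chk2, emerin, 237 to 400 in nosgal4 and 895 to 1061 in baf GLKD. Of these 11 genes 7 rose and 2, tj and upd1, fell in emerin, and 5 rose in baf GLKD. Germline genes did not all fall, since bgcn rose in emerin (log2 fold change 2.05, edgeR adjusted p = 0.000261). In chk2, emerin against wild type 4.76% of all genes fell. Of the 12 fat body genes 1, the larval serum protein gene Lsp1alpha, fell (log2 fold change -2.51, edgeR adjusted p = 0.0346). Of 10 muscle sheath genes 2 fell, and 6 were lower at an unadjusted p under 0.05 (edgeR). No hemocyte gene was called (edgeR, 1 lower at an unadjusted p under 0.05) and no ovarian soma gene was called (edgeR, 0 at an unadjusted p under 0.05). The fat body sums of chk2, emerin lay inside the wild-type ranges, which span both strains, with and without the yolk protein genes. In yw alone the fat body sum was 262 to 596 CPM and the hemocyte sum 370 to 551, below every chk2, emerin library. Without the yolk protein genes the yw fat body sum was 59.5 to 175 CPM, a range that holds the chk2, emerin values. The part of these cell types in the levels of antimicrobial peptide genes was not tested, and in whole ovaries more cells of a type cannot be told apart from more RNA per cell.

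**Figure D3:**
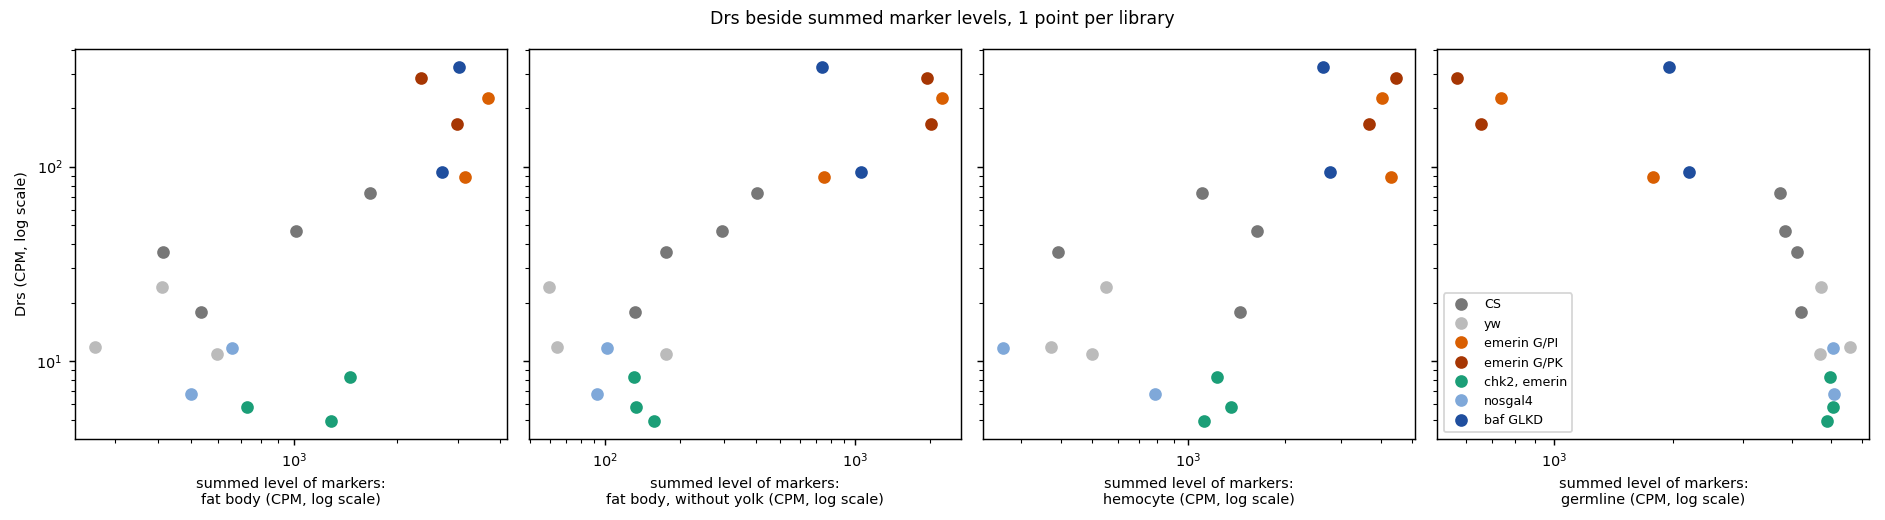
Drs (CPM, log axis) in each library against the summed level of 12 fat body markers, of the 9 of them that are not yolk protein genes, of 12 hemocyte and of 11 germline markers (CPM, log axes), with 1 point per library coloured by genotype. The emerin and baf GLKD libraries lie at high Drs, high fat body and hemocyte sums (the latter mostly Ppn) and low germline sums. The chk2, emerin libraries lie at low Drs, where they overlap nosgal4. Their fat body sums are 727 to 1453 CPM, mostly yolk protein genes, and 131 to 157 CPM without these. The wild-type ranges are 262 to 1661 and 59.5 to 406.

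Mtk (chromosome 2R, 15408846 to 15409113) encodes a proline-rich peptide active against fungi and bacteria and responds to both Toll and Imd. Its level was 0.0386, 0.159, 0.458 and 0.0382 CPM in CS and 0.333, 0.246 and 0.0569 in yw. It was 0.611 and 1.19 in emerin G/PI and 0.397 and 1.68 in emerin G/PK, so that CS replicate 3 overlapped the lowest emerin library. Mtk rose in emerin by 2.33 on the log2 scale (SE 0.66, edgeR adjusted p = 0.00691). It missed the threshold within the first library set (1.58, edgeR adjusted p = 0.348), within the second (2.50, 0.0604) and against yw alone (2.14, 0.0508). With 0, 2 and 1 counts in chk2, emerin, the count ratio of emerin to the double mutants was 22.3 (95% counting interval 7.36 to 111), and edgeR's adjusted p was 0.00252. In baf GLKD, at 1.20 and 0.475 CPM, Mtk did not separate from nosgal4, at 0.321 and 0.620. The log2 difference of 0.83 had a 95% interval from -1.39 to 3.06.

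Def (chromosome 2R, 10054178 to 10054576) encodes the insect defensin, which acts on Gram-positive bacteria. The yw libraries had 1.33, 0.575 and 0 CPM, and the CS libraries 1.04, 1.19, 2.39 and 5.61. Emerin G/PI had 6.03 and 11.3 CPM and emerin G/PK 3.92 and 8.91, so that CS replicate 4 lay among them. Def missed the threshold in emerin against wild type, at a log2 fold change of 2.11 (standard error 0.92, edgeR adjusted p = 0.0622), and passed it without CS replicate 4, at 2.73 (edgeR adjusted p = 0.0186). It also passed without baf GLKD replicate 1 or 2, libraries that enter only the estimate of spread (edgeR adjusted p = 0.0411 and 0.0380). Against yw alone Def passed as well, at 3.54 (edgeR adjusted p = 0.0247).

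The baf GLKD libraries disagreed on Def more than on any other member. Replicate 1 held 564 counts (21.9 CPM) and replicate 2 held 9 (0.427 CPM), against 5 and 1 counts in nosgal4. Def was called higher, at a log2 fold change of 6.42 (standard error 1.98, edgeR adjusted p = 0.0302). That value rests on baf GLKD replicate 1, without which it was 1.69 (edgeR adjusted p = 0.619). It was 7.38 without baf GLKD replicate 2 (edgeR adjusted p = 0.0191), and the call was also lost without nosgal4 replicate 1 (7.81, edgeR adjusted p = 0.112) or 2 (5.76, edgeR adjusted p = 0.186). The library sets alone gave 6.73 (edgeR adjusted p = 0.270) and 3.12 (0.543). The chk2, emerin libraries had 1.02, 0.0489 and 0.152 CPM, all below every emerin library, with a log2 difference of 4.18 between emerin and chk2, emerin (SE 1.39, edgeR adjusted p = 0.0202). It was 6.10 (edgeR adjusted p = 0.0149) without chk2, emerin replicate 1, and the call was lost without replicate 2 (3.68, edgeR adjusted p = 0.0730) or 3 (3.78, edgeR adjusted p = 0.0780).

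Dro (chromosome 2R, 14745961 to 14746714) encodes a proline-rich, glycosylated peptide against Gram-negative bacteria and agreed within each emerin genotype. Emerin G/PI had 3.54 and 3.73 CPM and emerin G/PK 5.51 and 5.45. CS had 0.617, 0.597, 2.39 and 0.993 and yw had 0.618, 1.68 and 0.285, all lower than any emerin library. The log2 fold change was 2.15 (standard error 0.51, edgeR adjusted p = 0.00216). It stayed between 1.99 and 2.43 with each library left out, and was 1.94 within both the first (edgeR adjusted p = 0.163) and the second library set (0.0261).

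Unlike Drs, Dro was not clearly below wild type in the double mutants. chk2, emerin had 0.935, 0.489 and 0.685 CPM, inside the wild-type range, with a log2 difference of -0.54 (95% interval -1.83 to 0.75, edgeR adjusted p = 0.603). Emerin exceeded chk2, emerin by 2.68 (SE 0.71, edgeR adjusted p = 0.00488). baf GLKD was at 6.47 and 3.42 CPM and nosgal4 at 0.120 and 0.975, a log2 fold change of 3.17 (standard error 0.92, edgeR adjusted p = 0.0220). Without nosgal4 replicate 1 this was 2.34 (edgeR adjusted p = 0.142), without nosgal4 replicate 2 it was 5.30 (edgeR adjusted p = 0.0209) and without baf GLKD replicate 1 it was 2.57 (edgeR adjusted p = 0.131). The library sets alone gave 5.68 (edgeR adjusted p = 0.270) and 1.81 (0.292).

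The attacins are glycine-rich peptides against Gram-negative bacteria. AttA (chromosome 2R, 14747362 to 14748215) and AttB (14749223 to 14750165) lie 1007 bases apart and are near-identical copies, so reads may have been split between them and their separate values are uncertain. AttA had 0.116, 0.0796, 2.24 and 0.153 CPM in CS, 0.143, 0.246 and 0 in yw, 1.34 and 1.30 in emerin G/PI and 3.52 and 1.68 in emerin G/PK. CS replicate 3 alone of the wild-type libraries overlapped the emerin range. AttA missed the threshold, at a log2 fold change of 2.21 (standard error 0.93, edgeR adjusted p = 0.0532), and passed it without CS replicate 3, at 3.84 (edgeR adjusted p = 0.000344), or without nosgal4 replicate 1 or 2 (edgeR adjusted p = 0.0472 and 0.0473). Against yw alone AttA also passed, at 3.80 (edgeR adjusted p = 0.0198).

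AttB overlapped between emerin and wild type. Its emerin libraries had 0.978, 1.45, 1.99 and 1.68 CPM, within the wild-type range of 0.0569 to 3.46, and the log2 difference was 0.24 (95% interval -1.17 to 1.65). In a sum of AttA and AttB, emerin differed from wild type by 1.03 (SE 0.66, edgeR adjusted p = 0.201), from chk2, emerin by 3.43 (SE 0.97, edgeR adjusted p = 0.00785), and baf GLKD from nosgal4 by 2.79 (SE 1.16, edgeR adjusted p = 0.0979). The summed counts were 7, 10 and 5 in chk2, emerin, against 53 to 111 in emerin.

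Taken singly, both were higher in emerin than in chk2, emerin. The log2 fold change was 4.29 for AttA (SE 1.43, edgeR adjusted p = 0.0202) and 2.74 for AttB (SE 0.94, edgeR adjusted p = 0.0233). For AttA it was 4.88 without chk2, emerin replicate 1 (edgeR adjusted p = 0.0445), and the call was lost without replicate 2 (edgeR adjusted p = 0.0703) or 3 (0.0595). For AttB it was 3.87 without replicate 2 (edgeR adjusted p = 0.0130), and the call was lost without replicate 1 (0.0889) or 3 (0.0939). Against the references, AttB would also have been called without yw replicate 3, lower in chk2, emerin (edgeR adjusted p = 0.0379) and higher in baf GLKD (0.0391). With all libraries AttB was at -2.50 (edgeR adjusted p = 0.0912) and 2.86 (edgeR adjusted p = 0.0874) in these comparisons.

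AttC (chromosome 2R, 13393705 to 13394667) was the most even of the attacins. Wild-type libraries ranged from 0.926 to 5.34 CPM with a median of 2.44, and emerin libraries had 2.85, 3.53, 1.79 and 2.31. The log2 difference was 0.09 (95% interval -1.15 to 1.33). chk2, emerin had 1.59, 1.03 and 0.114 CPM. These lay below all emerin libraries, but the log2 difference of 1.52 missed the threshold (edgeR adjusted p = 0.105). baf GLKD had 5.89 and 1.28 CPM and nosgal4 0.842 and 2.22.

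AttD (chromosome 3R, 17625268 to 17626086) encodes an attacin without a signal peptide and was close to the detection limit. It had 1, 2, 0 and 0 counts in CS and 4, 5 and 6 in yw, a count ratio of CS to yw of 0.130 (95% counting interval 0.0241 to 0.4595). Every CS library was below every yw library, but the difference was not called (edgeR adjusted p = 0.0927). The highest values were 29 and 10 counts in baf GLKD, against 4 and 2 in nosgal4, a log2 difference of 2.63 (95% interval -0.51 to 5.76, edgeR adjusted p = 0.218). chk2, emerin had 1, 0 and 0 counts and emerin 0, 3, 2 and 7, a count ratio of 10.3 for emerin to chk2, emerin (95% counting interval 1.53 to 441, edgeR adjusted p = 0.0999). Counting intervals cover counting error only.

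The diptericins, glycine-rich peptides that are the usual readout of Imd, did not separate emerin from wild type or baf GLKD from nosgal4. DptA (chromosome 2R, 18865765 to 18866260) and DptB (18867391 to 18867895) lie 1130 bases apart. DptA had a wild-type range of 0.199 to 0.862 CPM, and emerin libraries had 0.163, 1.19, 0.447 and 0.838. DptB had a wild-type range of 0.0569 to 1.58 CPM, and emerin libraries had 0.407, 1.19, 0.596 and 0.891. The log2 differences of emerin from wild type were 0.57 for DptA (95% interval -0.87 to 2.01) and 0.12 for DptB (-1.35 to 1.59). These intervals do not exclude a 2-fold change of either gene.

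In baf GLKD against nosgal4, DptA was at -0.21 (95% interval -2.52 to 2.10) and DptB at 1.26 (-1.09 to 3.61). The replicates of both groups disagreed. DptA was 0.814 and 0.237 CPM in baf GLKD and 0.0802 and 1.15 in nosgal4, and DptB was 2.60 and 0.380 in baf GLKD and 0.361 and 0.886 in nosgal4. chk2, emerin was low for both, with 0.325, 0.196 and 0.0380 CPM for DptA and 0.285, 0.342 and 0.0761 for DptB. The DptB values lay below all emerin libraries. Neither gene was called against emerin (edgeR adjusted p = 0.111 for DptA and 0.132 for DptB).

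Counted over all 10 genes, 3 rose in emerin against wild type (Dro, Drs and Mtk), none fell, where by the same rule 28.3% of all tested genes were higher and 26.6% lower. AttA and Def were also higher, and no member lower, at an unadjusted p under 0.05. The share of members called is therefore near that of all genes. All 10 fitted differences were positive, with a median log2 fold change of 1.34 against 0.12 for all genes. Groups did not overlap for Dro and Drs, where 19.9% of all genes had every emerin library above every wild-type library.

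**Figure D4:**
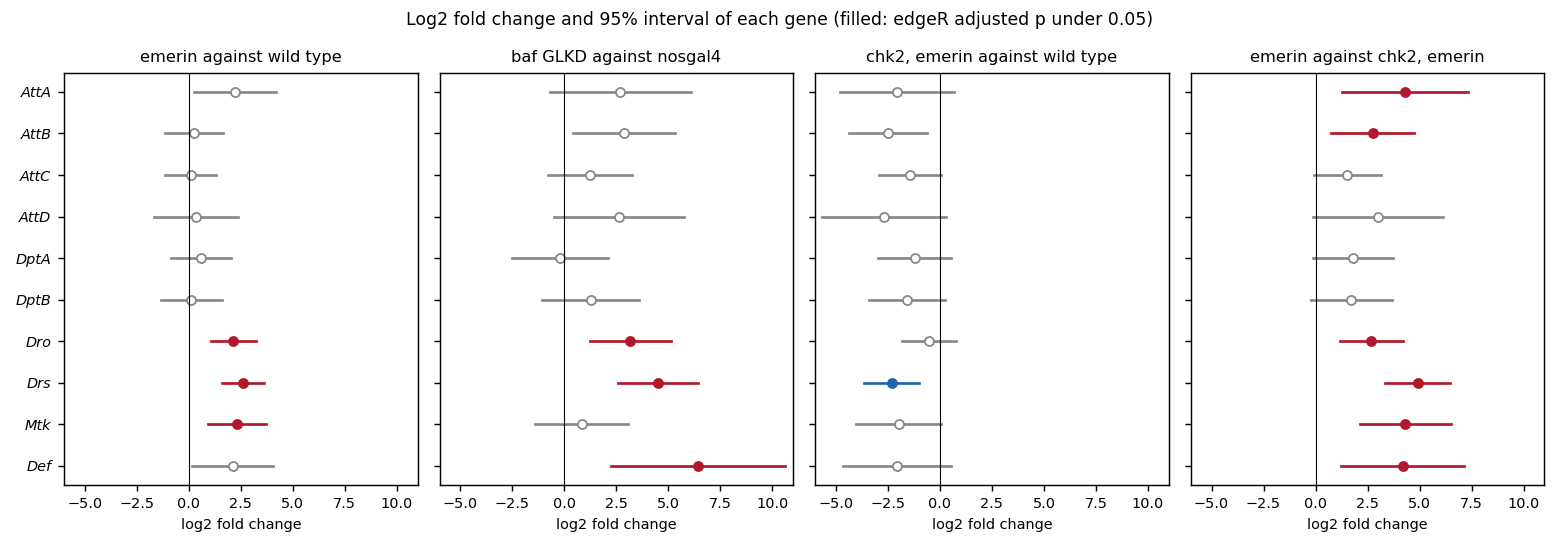
Log2 fold change (x axis) of each gene (y axis) with its 95% interval in 4 comparisons; filled points passed edgeR's adjusted p under 0.05, red higher and blue lower. Dro and Drs are filled and right of 0 in emerin against wild type, baf GLKD against nosgal4 and emerin against chk2, emerin, and in chk2, emerin against wild type only Drs is filled, left of 0.

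In baf GLKD against nosgal4, 3 of 10 members rose (Dro, Drs and Def) and none fell, beside 13.3% of all genes higher and 8.28% lower. Without baf GLKD replicate 1 or without nosgal4 replicate 1 only Drs was called of the 10. The median log2 fold change was 2.66 against 0.11 for all genes. Both baf GLKD libraries were above both nosgal4 libraries for 6 members (AttA, AttB, AttD, Dro, Drs and Def), which held for 34.1% of all genes. Because emerin and baf GLKD were compared with different controls, the difference between both effects was tested itself, and edgeR called no member, with none at an unadjusted p under 0.05 and none called by DESeq2. In that test 0.0313% of all genes were higher and 0.0157% lower. The baf GLKD effect exceeded the emerin effect by 1.91 for Drs (95% interval -0.09 to 3.91), by 1.03 for Dro (-1.11 to 3.16) and by 4.32 for Def (-0.04 to 8.67).

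In chk2, emerin against wild type, Drs fell and no other member was called, beside 4.76% of all genes lower and 2.82% higher. All 10 fitted differences were negative. Their median was -2.03 on the log2 scale, and -2.07 with Mtk and AttD at their count ratios, against -0.07 for all genes. Only Drs had all double mutant libraries below all wild-type libraries, which held for 7.11% of all genes. AttB was the other member at an unadjusted p under 0.05.

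The comparison of emerin with chk2, emerin gave the most calls. In it 6 of 10 members were higher in emerin (AttA, AttB, Dro, Drs, Mtk and Def) and none lower, beside 26.4% of all genes higher and 22.7% lower, with a median of 2.88 against 0.25 for all genes. All emerin libraries exceeded all double mutant libraries for 8 members, every one but AttD and DptA, and for 30.4% of all genes. The same 6 and DptA were called within the second library set. Without chk2, emerin replicate 3 only Dro, Drs and Mtk were called. With emerin G/PK as the only emerin genotype, 7 members were higher, AttD in addition, and none lower, beside 25.5% of all genes higher and 22.7% lower. The count was 3 without emerin G/PK replicate 2 and 4 without chk2, emerin replicate 3. These comparisons share libraries with those against wild type and are not separate evidence.

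The wild-type strains differed in level for some members. Drs was at 43.7 ± 23.2 CPM (SD, n = 4) in CS and at 15.6 ± 7.34 (SD, n = 3) in yw, a log2 difference of 1.48 (SE 0.53, edgeR adjusted p = 0.0806) that passed without CS replicate 1 (1.72, edgeR adjusted p = 0.0474). edgeR called no member between CS and yw, where 6.37% of all genes were higher and 6.06% lower. Drs (higher) and AttD (lower) had an unadjusted p under 0.05, and DESeq2 called Drs. CS was also higher than yw for 7 of 12 hemocyte and 4 of 12 fat body markers, and their part was not tested.

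The emerin genotypes were not distinguishable at n = 2 each. No member was called by edgeR between emerin G/PI and emerin G/PK, none at an unadjusted p under 0.05 and none by DESeq2, beside 0.611% of all genes higher and 0.0862% lower. For Drs the log2 difference was -0.53 (95% interval -1.92 to 0.86). AttA, AttB and Dro were lower in both G/PI libraries than in both G/PK libraries (19.2% of all genes), and AttC was higher (22%).

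Ordered by mean CPM, chk2, emerin was the lowest of 7 genotypes for 8 members and among the lowest 2 for all 10. baf GLKD was the highest for 5. Emerin G/PI, emerin G/PK and baf GLKD took the top 3 places for 5 members (AttA, Dro, Drs, Mtk and Def). Neighbours in these orders mostly overlapped, in 55 of 60 pairs. The 5 pairs whose libraries separated were baf GLKD above emerin G/PI for AttA, baf GLKD above yw for AttD, nosgal4 above chk2, emerin for DptB, and emerin G/PI above CS for Dro and for Drs. These orders were not counted over all genes, so the counts are descriptions and cannot show a trait of the members.

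Neighbouring members did not all give the same call. Dro, AttA and AttB lie in a row on chromosome 2R, with 647 bases between Dro and AttA. In emerin against wild type Dro rose, AttA was at 2.21 and AttB at 0.24. The neighbouring diptericins were at 0.57 and 0.12. Across the 18 libraries, the correlation of each gene's log2 CPM with the mean standardised profile of the other 9 was highest for Drs (Pearson's r 0.849), AttB (0.830), DptB (0.827), AttA (0.805) and Dro (0.802), and lowest for AttD (0.354). These values describe libraries that share genotype and depth and carry no test.

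Other immune effectors were compared as a list of 36 genes, 35 of them in the table and 31 tested, comprising cecropins, bomanins, daishos, baramicins, drosomycin-like genes, Listericin and Turandots. In emerin 8 rose and 1, BaraA1, fell, and the 25.8% that rose is near the 28.3% of all genes that did, so this count is not a result about the effectors. In baf GLKD 8 rose (25.8%, against 13.3% of all genes) and none fell. In chk2, emerin 12 fell against CS and yw together (38.7%, against 4.76% of all genes) and none rose. The double mutants share the yw background, and 5 of the 31 were higher in CS than in yw (16.1%, against 6.37% of all genes), none lower. The part of the strain in the 12 calls was not tested. Between emerin and chk2, emerin 25 were higher (80.6%, against 26.4% of all genes) and none lower, with a median log2 fold change of 4.07 (3.86 with genes of at most 3 counts at their bound or count ratio) against 0.25 for all genes. Drsl5, a drosomycin-like gene, was at 0 to 0.569 CPM in wild type, 0.692 to 4.91 in emerin, 20.8 and 23.8 in baf GLKD and 0.0813 to 0.245 in chk2, emerin. Its log2 fold changes were 4.21 in emerin (SE 0.72, edgeR adjusted p = 0.000131) and 5.42 in baf GLKD (SE 1.26, edgeR adjusted p = 0.00783).

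TotA, a Turandot stress peptide gene, rose from 0.964 to 2.85 CPM in wild type to 8.68 to 22.4 in emerin (log2 fold change 2.88, SE 0.38, edgeR adjusted p = 1.21e-05). BaraC, a baramicin family gene, was at 1.08 to 6.01 CPM in wild type and 7.54 to 16.1 in emerin (1.71, SE 0.37, edgeR adjusted p = 0.000998). Listericin, an antibacterial peptide gene, had 0 counts in both nosgal4 libraries and 14 and 88 in baf GLKD, at least 34.5-fold higher against a floor of 3 counts over the group. TotM had 0 counts in nosgal4 and 6 and 38 in baf GLKD, at least 14.9-fold higher by the same floor. Among the 12 genes that fell in the double mutants were 8 bomanins, small peptides released under Toll control, and CecA1, a cecropin, with 0 counts in all 3 double mutant libraries, at least 12.9-fold lower. The strain limit given above applies to these genes too.

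Most genes for recognition proteins, which act upstream of the peptides, rose in emerin. Of 14 tested PGRP and GNBP genes 11 rose in emerin (78.6%, against 28.3% of all genes), 4 rose in baf GLKD (28.6%, against 13.3%) and 1, GNBP-like3, fell in chk2, emerin (7.14%, against 4.76%). PGRP-LC, the main membrane receptor of Imd, was at 7.51 to 22.7 CPM in wild type, 38.7 to 54.7 in emerin and 10.99 to 17.5 in chk2, emerin, a log2 fold change of 1.67 in emerin (SE 0.23, edgeR adjusted p = 1.95e-05), and of 2.29 in baf GLKD (SE 0.40, edgeR adjusted p = 0.00124). The neighbouring receptors PGRP-LA and PGRP-LF, of which PGRP-LF inhibits Imd, rose by 2.52 and 2.72 in emerin and by 2.51 and 2.09 in baf GLKD, with edgeR adjusted p of at most 0.00235.

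Of 16 Toll genes 9 rose (56.2%, against 28.3% of all genes) and 5 fell (31.2%, against 26.6%) in emerin. Those that fell include the receptor gene Tl (log2 fold change -1.54, edgeR adjusted p = 3.07e-06) and the Spätzle gene spz (-0.75, edgeR adjusted p = 0.00192). In baf GLKD 4 rose (25.0%, against 13.3%) and 2 fell (12.5%, against 8.28%), Tl among them (-0.90, edgeR adjusted p = 0.0252). Dif, the NF-kB factor that acts on Drs in adult fat body, was at 17.7 to 54.5 CPM in wild type, 171 to 194 in emerin and 36.8 to 37.5 in chk2, emerin (2.36 in emerin, SE 0.24, edgeR adjusted p = 8.79e-07), and rose by 1.96 in baf GLKD (edgeR adjusted p = 0.00399). The serpin nec, which restrains Toll, rose by 2.35 and 2.05 in the same comparisons, the protease psh rose by 2.70 in emerin and the protease grass by 1.82 in baf GLKD, with edgeR adjusted p of at most 0.00234. Of 18 Imd genes 6 rose (33.3%) and 4 fell (22.2%) in emerin, shares near those of all genes, and 4 rose (22.2%) and 1 fell (5.56%) in baf GLKD. The adaptor imd rose by 0.68 and 0.65 (edgeR adjusted p = 3.70e-05 and 0.0118), the nuclear cofactor akirin fell by 1.27 and 0.76 (edgeR adjusted p = 2.60e-06 and 0.0221), the kinase Tak1 rose by 0.54 in emerin (edgeR adjusted p = 0.000207) and pirk, an inhibitor of Imd, rose by 1.89 in baf GLKD (edgeR adjusted p = 0.0239).

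The 5 other genes whose log2 CPM followed the mean profile of the 10 most closely over the 18 libraries were CG6675 (Pearson's r 0.882), Tom (0.878), CG34436 (0.877), CG9521 (0.877) and Bbd (0.871). Bbd (Bombardier), a Toll target needed for bomanin activity, was the most abundant of them, at 5.06 CPM in chk2, emerin replicate 3 and 83.0 in emerin G/PK replicate 2. It rose in emerin by 1.85 (edgeR adjusted p = 0.00180) and was at 2.06 in baf GLKD (edgeR adjusted p = 0.0557). Tom, a gene of the Bearded family, reached at most 0.930 CPM. The points share library and genotype, and the values are descriptions.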

How the data were processed

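PolyA-selected RNA of 18 ovary libraries was sequenced as paired reads. The authors trimmed reads with Trim Galore (version 0.6.6 per the labels), estimated transcript abundance with kallisto 0.46.1 on BDGP6 (dm6) and joined transcripts into genes with tximeta. Estimated counts of 14237 genes, deposited as whole numbers and unscaled, were the main input. Each library also has a deposited table of transcripts with its estimated count, TPM and effective length in bases, which was used for TPM and as an alternative only. Groups were taken from sample titles.

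A gene needed at least 10 counts summed over the 18 libraries, which 12762 had. Counts were fitted with edgeR 4.0.16 (limma 3.58.1, R 4.3.3) by quasi-likelihood with TMM scaling, with all libraries in 1 fit of 5 groups (CS and yw as wild type, both emerin genotypes together), and of 7 genotypes for comparisons between single genotypes. Gene symbols and positions are those of the BDGP6.54 annotation. Tables and figures used pandas 2.3.3, numpy 2.4.6, scipy 1.17.1 and matplotlib 3.10.9. Libraries of 1 genotype differed by more than sampling noise (chi-square per degree of freedom 16.4 to 204.1), so none was treated as a copy. The procedure was checked on simulated data.

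The members and the gene lists were chosen with earlier results of these data known. Genes named were all members, the 3 smallest adjusted p of each of 4 immune lists in emerin and in baf GLKD, the 5 other genes most like the mean member profile (log2 CPM, prior count 0.5) and the targeted genes. takeout, Lsp1alpha, Yp1, Yp2, Yp3, Ppn, tj, upd1, bgcn, BaraA1, GNBP-like3, CecA1, Tl and spz were named after their values were seen. The alternatives were DESeq2 1.42.0, other scalings and filters, a fit of the compared groups only, a replicate block, 7 genotypes as separate coefficients, single wild-type strains or emerin genotypes, the transcript tables, a library set block and each library left out. The sum of AttA and AttB, each library set alone and the fat body sum without yolk protein genes were chosen after seeing the data.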

Additional observations from a re-analysis of the deposited data

Results flagged for a closer look

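In 30 groups of 4 to 7 libraries, Dixon's criterion marked a value far from the rest of its group 4 times. Chance meets it in about 1 of 20 groups if values are normally distributed. The groups overlap, and AttA in CS replicate 3 was marked among both the wild-type and the CS libraries. AttA in CS replicate 3 was at 2.24 CPM, where the next highest of the 7 wild-type libraries had 0.246 and the next of the 4 CS libraries 0.153. AttA in emerin G/PK replicate 1 was at 3.52 CPM, where the next of the 4 emerin libraries had 1.68, a gap just past the criterion. Def in CS replicate 4 was at 5.61 CPM, where the next of the 7 wild-type libraries had 2.39.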

How the results depend on the processing

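Depth limits the members other than Drs, most of which had fewer than 100 counts in a library. The replicate numbers do not pair the libraries (correlations of same-numbered libraries from -0.06 to 0.28, over 0.1 in 9 of 25 pairs). Members with all libraries were compared with the alternatives 2008 times, of which 1878 kept direction and side of the threshold, 50 lost the threshold, 27 gained it and 53 changed sign, none of these a called value.

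In emerin against wild type 5 members were called with DESeq2, with the replicate block and with 7 genotypes as separate coefficients, and 0 with the first library set only, where fewer libraries enter. In baf GLKD against nosgal4 1 was called in a fit of the compared groups only, and 0 with the first or the second library set only. In chk2, emerin against wild type 2 were called with DESeq2, and 0 with the compared groups only, with the replicate block, where Drs was at -2.15 (edgeR adjusted p = 0.0549), and with yw only. In CS against yw 1 was called with DESeq2, with the transcript tables (AttD) and with the second library set only. With each library left out the counts called ranged from 3 to 4 in emerin against wild type, 1 to 4 in baf GLKD against nosgal4, 0 to 2 in chk2, emerin against wild type, 3 to 6 in emerin against chk2, emerin, 3 to 7 in emerin G/PK against chk2, emerin and 0 to 1 in CS against yw, and were 0 to 0 in the comparisons without calls. The cause of these changes was not tested.

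The changes of sign were as follows. In emerin against wild type AttB was at -0.01 against CS only, -0.08 with emerin G/PI only, -0.06 with the first library set and -0.05 with the second. AttC was at -0.00 with the replicate block, -0.14 against CS only, -0.27 with emerin G/PK only and -0.25 with the second set. AttD was at -0.66 against yw only, -0.65 with emerin G/PI only and -4.72 with the first set. DptA was at -1.64 with the first set, and DptB at -0.09 with the replicate block and -0.85 with the first set. In baf GLKD against nosgal4 DptA was at 0.21 with the replicate block, 0.02 with the library set block and 3.26 with the first set, and with the second set AttC was at -0.78, DptB at -1.20 and Mtk at -0.38. With the second set the difference between the baf GLKD and emerin effects was -0.13 for Dro. In CS against yw DptB was at 0.05 with the replicate block, DptB at 0.91 and Mtk at 0.06 with the transcript tables, and DptA at 0.87, DptB at 4.01 and Mtk at 1.92 with the second set. Drs between the emerin genotypes was at 0.02 with the second set. With each library left out in turn, the ranges of values that changed sign were as follows. In emerin against wild type they were -0.15 to 0.34 for AttC, -0.57 to 0.80 for AttD and -0.24 to 0.38 for DptB. In baf GLKD against nosgal4 they were -0.31 to 2.08 for AttC, -1.42 to 2.64 for DptA, -0.76 to 2.03 for DptB and -0.04 to 1.37 for Mtk. In CS against yw they were -0.24 to 2.97 for AttA, -0.12 to 1.16 for AttB, -1.03 to 0.19 for DptB, -0.27 to 1.31 for Dro and -1.42 to 0.07 for Mtk. The range was -1.33 to 0.02 for Drs between the emerin genotypes, and -0.38 to 5.70 for Def in the difference between the baf GLKD and emerin effects.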
